A study of Mus musculus with 8 samples.

Results

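The 134 genes described here are the protein-coding mouse genes named Zfp plus a number that were read at a minimum of 5 CPM in each of the 4 input libraries of an RNA immunoprecipitation (RIP) experiment. They were selected on those input values, from 363 protein-coding genes with such names and 52550 genes in the count table. Zfp36, which encodes an mRNA decay factor of another zinc finger class, and Zfp42, a pluripotency marker, were left out by the rule. CPM stands for a gene's reads per 1000000 reads on genes in the library.

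The study asked which transcripts are bound by eIF4A2, an RNA helicase of the translation initiation machinery. All cells were mouse embryonic stem cells (ESCs) with a knockout of Eif4a2. They carried either an empty vector (EV) or a vector for Flag-tagged full-length eIF4A2 (eIF4A2FL), and were grown in ES-DMEM with 2i and LIF, which hold ESCs in the naive state. RNA was taken from anti-Flag precipitates (5 µg of antibody, 3 h) and from inputs of the same cell lines. The sources used here do not say that libraries with the same replicate number came from 1 lysate. This gave 8 libraries in 4 groups of 2: input EV, input eIF4A2FL, RIP EV, and RIP eIF4A2FL. The eIF4A2FL replicates came from separate clones. The sources do not say whether the EV replicates did, so for EV the p-values may measure technical spread only. In EV cells there was no Flag-tagged protein, so RIP EV is the background of the antibody and beads.

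Zfp is the mouse stem for zinc finger proteins of the C2H2 type, in which a pair of cysteines and a pair of histidines hold a zinc ion and the finger reads a short stretch of DNA. Many carry a Krüppel-associated box (KRAB), which recruits TRIM28 and through it SETDB1, HP1 proteins, and DNA methyltransferases. In ESCs and early embryos, KRAB zinc finger proteins are known for silencing retroelements and for keeping imprinted DNA methylation. Other members without the box act as promoter-binding factors, and a few bind RNA or ribosomes.

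A KRAB box was found in 54 of the 134 genes and not in the other 80. The C2H2 spacing pattern was found in the protein of all but 3 members (Zfp330, Zfp365, and Zfp839). The median number of matches was 10 in the KRAB genes and 8 in the others, and the highest number was 37. The mouse genome holds these genes in clusters: 39 members lay on chromosome 7, 18 of them with a KRAB box, and 11 each on chromosomes 8 and 17.

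The coding sequence of 1 finger is shown for the 3 KRAB genes that rose in RIP eIF4A2FL against its input (Zfp568, Zfp7, and Zfp777) and the 2 that fell (Zfp930 and Zfp773), since these 5 carry the KRAB results below. Each is the last finger of the longest coding transcript that follows a linker of the usual kind, read from GENCODE transcripts of GRCm38. The 84 bases run 5′ to 3′ on the coding strand, and capitals mark the linker codons and the codons of the zinc-binding cysteines and histidines. They lie at chr7:30023543-30023626 (plus strand), chr15:76891725-76891808 (plus), chr6:48024641-48024724 (minus), chr8:69228867-69228950 (plus), and chr7:7132387-7132470 (minus), each within 1 coding exon.
Zfp568: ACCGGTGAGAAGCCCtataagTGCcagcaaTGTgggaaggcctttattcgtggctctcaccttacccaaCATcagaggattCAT
Zfp7: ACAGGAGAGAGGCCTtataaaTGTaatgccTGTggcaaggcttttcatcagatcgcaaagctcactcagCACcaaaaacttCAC
Zfp777: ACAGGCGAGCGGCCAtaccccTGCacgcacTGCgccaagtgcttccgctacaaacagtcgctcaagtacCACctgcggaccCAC
Zfp930: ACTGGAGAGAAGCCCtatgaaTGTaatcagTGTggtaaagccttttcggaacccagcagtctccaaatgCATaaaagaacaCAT
Zfp773: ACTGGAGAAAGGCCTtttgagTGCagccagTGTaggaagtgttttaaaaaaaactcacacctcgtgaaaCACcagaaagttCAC

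Across the 10 pairs of these 5 sequences, between 44.0% and 64.3% of positions were identical. A finger of this form within 1 exon was found in 68 members outside chromosome 18. Fingers repeat within and between genes, so reads can be shared. In 8 members, more than 10% of the 50-base words in the last 500 bases of the transcript also occurred in another gene, the highest share being 47.5% in Zfp414. Zfp773 had 18.8% and Zfp930, Zfp777, and Zfp7 had 0, but Zfp7 overlapped another gene on its strand, as did 13 members in all. Values of such members are uncertain.

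Reads on genes came to between 2044853 and 11206420 per library, and the 2 RIP EV libraries were among the 3 with the fewest. Reads outside annotated exons made up 45.8% and 29.7% of the RIP EV libraries and 3.30% to 17.6% of the other 6. All 10 naive ESC markers were above 1 CPM in every input, with Pou5f1, a core pluripotency factor, at 5.78 to 19.7 CPM. They summed to 2240 to 2530 CPM in input EV and 2700 to 3250 CPM in input eIF4A2FL. Formative or primed markers were read as well, at a sum of 119 to 170 CPM and 103 to 198 CPM. Among them were Dnmt3b at 76.0 to 150 CPM and Otx2 at 15.5 to 54.1 CPM, while Fgf5 had at most 0.312 CPM in an input. Of the fibroblast markers, Col3a1, Postn, and Col1a2 had no reads in any input, and the list summed to 4.34 to 6.87 CPM in inputs, 5.21 to 5.80 CPM in RIP eIF4A2FL, and 3.59 and 76.3 CPM in RIP EV, where 75.3 CPM of replicate 1 was Acta2. Primitive endoderm markers summed to at most 2.41 CPM in any library. The targeted gene did not check the labels: Eif4a2 had 53.8 and 94.2 CPM in input EV and 86.8 and 69.1 CPM in input eIF4A2FL, and where these 3′ tags lie relative to the deletion was not examined.

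The input levels, which chose the genes, are a description. The median of the mean input level over the 4 inputs was 22.8 CPM, from 6.54 CPM for Zfp623 to 356 CPM for Zfp106, an RNA-binding protein. KRAB genes had a median of 16.2 CPM and the others 28.9 CPM. Just inside the limit, Zfp184 and Zfp384 each had a lowest input value of 5.19 CPM. Just outside it, Zfp101 had 4.99 CPM and Zfp46 and Zfp654 each had 4.98 CPM. The mean level in input eIF4A2FL and in input EV differed by less than 2-fold for 132 of the 134 genes, with a median log2 ratio of 0.01. In bulk libraries, fewer expressing cells and less RNA per cell cannot be told apart.

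Together, the 134 genes took 5460 to 5800 CPM of the inputs, 5790 and 5330 CPM of the RIP EV libraries, and 8800 and 9060 CPM of the RIP eIF4A2FL libraries. Both RIP eIF4A2FL libraries thus lay above all others. Other genes moved up too. With library size as the only scaling, the median log2 fold change over input was 0.57 for the members and 0.33 for all genes tested. The gain was uneven over the genes, as the plot of input against RIP levels shows. In eIF4A2FL cells, 101 of the 134 mean levels (75.4%) were within 2-fold of the input, against 76.4% of the 7764 protein-coding genes that passed the same input filter. In EV cells, 55 (41.0%) were, against 46.0%.

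**Figure D1:**
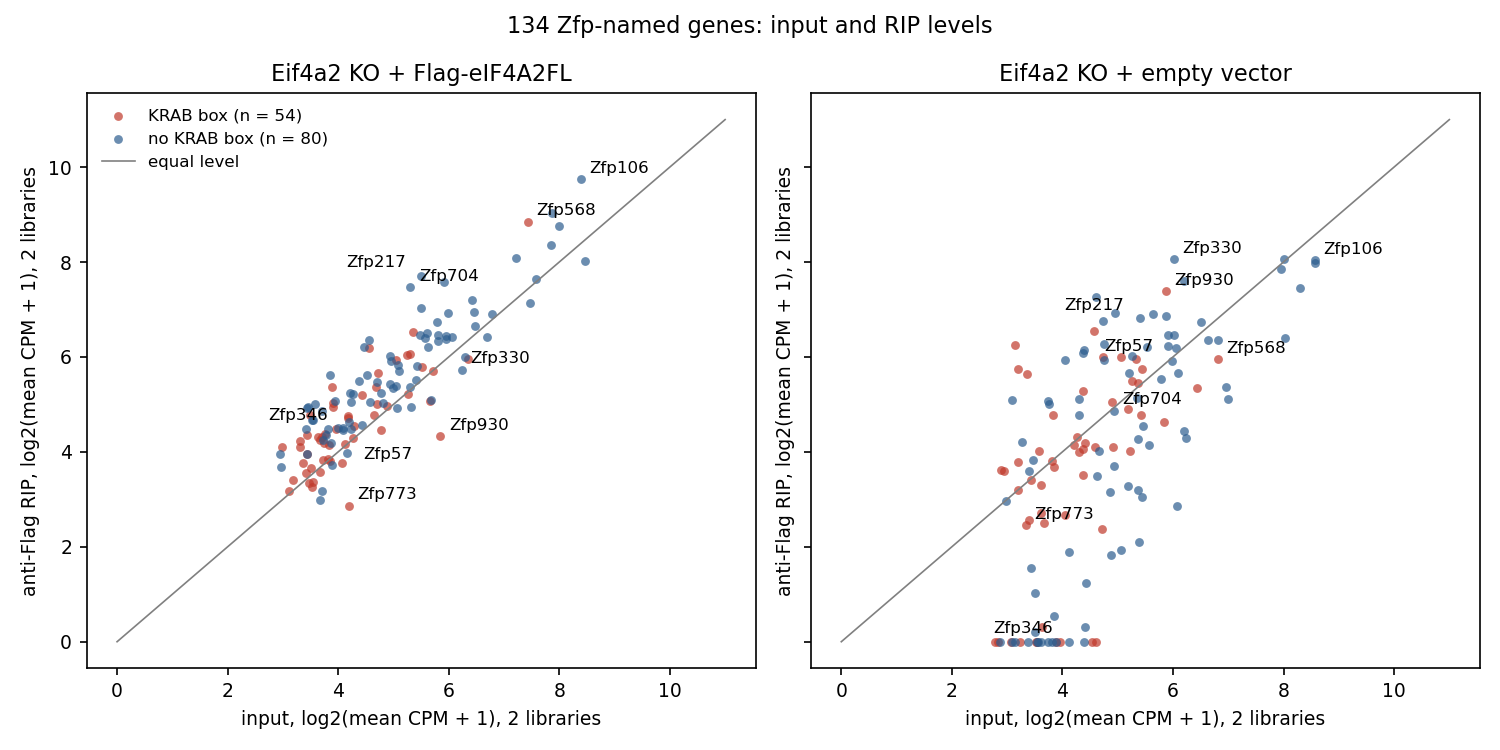
Mean level of each of the 134 genes in the input (x axis) and the anti-Flag RIP (y axis), both as log2(CPM + 1) over 2 libraries, in eIF4A2FL cells (left) and EV cells (right), with KRAB genes in red, other genes in blue, and a line of equal level. In eIF4A2FL cells the points follow the line, with Zfp930 and Zfp773 below it and Zfp217 and Zfp704 above it, while in EV cells they scatter widely and 22 genes lie at 0 in the RIP.

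The first comparison asked which of these transcripts were more or less abundant in RIP eIF4A2FL than in its own input. Of the 134 genes, 12 rose and 2 fell (edgeR quasi-likelihood test on the 4 libraries, Benjamini-Hochberg adjusted p under 0.05 over 10754 genes). The rises were Zfp217, Zfp704, Zfp516, Zfp652, Zfp777, Zfp827, Zfp407, Zfp710, Zfp7, Zfp507, Zfp568, and Zfp740, and the falls were Zfp930 and Zfp773, both KRAB genes. Of all genes tested, 8.44% rose and 8.46% fell. Of the protein-coding genes at the same input filter, 9.29% rose and 8.36% fell. Among the 134, 8.96% rose and 1.49% fell, so the share that rose was near the background and the share that fell was below it. The median log2 fold change was 0.24, from -1.86 to 1.93, against 0.02 over all genes tested and 0.01 over the protein-coding genes at the same filter, and 89 of the 134 were above 0. By CPM, 79 members had the 2 RIP libraries higher than the 2 inputs, and 12 had them lower, against 47.4% and 18.2% of the protein-coding genes.

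These counts depended on single libraries and on the spread assumed. Without RIP eIF4A2FL replicate 2, fewer members were called each way, as over all genes. The median log2 fold changes were then 0.21 for the members and -0.01 for all genes. Without input eIF4A2FL replicate 1, more were called each way, again as over all genes (medians 0.40 and 0.04). Without input eIF4A2FL replicate 2, fewer members rose and more fell, while over all genes fewer rose and fewer fell (medians 0.21 and 0.04). With library size as the only scaling, 32 members rose and 2 fell, against 1960 and 565 of all 10754 genes (908 and 910 with TMM scaling). The medians of members and of all genes moved to 0.57 and 0.33, a difference of 0.25 against 0.22 with TMM scaling. A fit of edgeR on all 8 libraries shares 1 spread with the far more variable RIP EV libraries. It called none of the 134, with 4 above and 2 below 0 at an unadjusted p under 0.05. Of all genes, it called 0 higher and 6 lower.

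The largest rise was that of Zfp217, a transcriptional co-regulator that binds the LSD1/CoREST complex and is linked to ESC identity. Its level was 55.8 and 32.6 CPM in the inputs and 179 and 238 CPM in RIP eIF4A2FL, a log2 fold change of 1.93 (SE 0.35, edgeR adjusted p = 0.00836). The groups did not overlap, but RIP EV was also high, at 120 and 103 CPM against 48.4 and 33.7 CPM in input EV. RIP eIF4A2FL against RIP EV differed for Zfp217 by 0.68 on the log2 scale (edgeR adjusted p = 0.381). In EV cells the log2 fold change of RIP over input was 1.40 (edgeR adjusted p = 0.224), so its RIP levels lay above the inputs in both cell lines. No gene passed that test in EV cells, so the pass in eIF4A2FL cells alone does not show a difference between the cell lines.

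Zfp704 rose from 46.1 and 31.2 CPM in the inputs to 153 and 202 CPM in RIP eIF4A2FL, a log2 fold change of 1.89 (SE 0.324, edgeR adjusted p = 0.00686). Its RIP EV levels, 33.7 and 22.7 CPM, were like those of input EV, 35.9 and 23.4 CPM. Its annotated 3′ UTR of 11767 bases was the longest among the 134.

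Zfp516, a factor known from brown fat development, rose from 12.6 and 14.3 CPM in the inputs to 40.8 and 55.1 CPM in RIP eIF4A2FL (log2 fold change 1.53, SE 0.31, edgeR adjusted p = 0.0123). The RIP EV libraries held 0 and 1 read of it. Zfp827, which recruits the NuRD complex to telomeres in some cells, was at 10.6 and 9.32 CPM in the inputs and at 24.5 and 35.1 CPM in RIP eIF4A2FL (log2 fold change 1.28, SE 0.348, edgeR adjusted p = 0.0341), with 0 and 3 reads in RIP EV. Both were at or below 3 reads in each background library. Without RIP eIF4A2FL replicate 2, neither passed the test (edgeR adjusted p = 0.0869 for Zfp516 and 0.262 for Zfp827), and without input eIF4A2FL replicate 2 Zfp827 did not (0.0732).

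Zfp652, a repressor that works with CBFA2T3, was at 19.5 and 22.6 CPM in the inputs and at 66.7 and 78.5 CPM in RIP eIF4A2FL (log2 fold change 1.48, SE 0.277, edgeR adjusted p = 0.00935). In RIP EV it was at 150 CPM in replicate 1 and 2.99 CPM in replicate 2, so its background is not known. The gene overlapped Phospho1 on the same strand.

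Among KRAB genes, the 3 that rose were Zfp777, Zfp7, and Zfp568, whose fingers are printed above. Zfp568, which represses a placental transcript of Igf2, was the most abundant of them: 142 and 201 CPM in the inputs and 470 and 452 CPM in RIP eIF4A2FL, a log2 fold change of 1.13 (SE 0.275, edgeR adjusted p = 0.0239). In EV cells it went the other way by CPM, from 117 and 106 CPM in the inputs to 60.2 and 62.5 CPM in RIP EV. Without RIP eIF4A2FL replicate 1 or 2, the rise of Zfp568 over input no longer passed (edgeR adjusted p = 0.0772 and 0.0887). Zfp777 was at 13.9 and 31.2 CPM in the inputs and at 68.3 and 76.5 CPM in RIP eIF4A2FL (log2 fold change 1.39, SE 0.357, edgeR adjusted p = 0.0286, and 0.0785 without RIP eIF4A2FL replicate 2). Its RIP EV levels were 0 and 64.0 CPM. Zfp7 was at 11.9 and 15.7 CPM in the inputs and at 41.1 and 39.2 CPM in RIP eIF4A2FL (log2 fold change 1.23, SE 0.297, edgeR adjusted p = 0.0226), but its RIP EV levels of 27.9 and 47.5 CPM overlapped the latter. Its highest edgeR adjusted p with 1 library left out was 0.0947, and it was not called without RIP eIF4A2FL replicate 2.

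The larger of the 2 falls was that of Zfp930, a KRAB gene with 12 finger matches. It was at 49.6 and 63.8 CPM in the inputs and at 19.4 and 19.0 CPM in RIP eIF4A2FL, a log2 fold change of -1.86 (SE 0.276, edgeR adjusted p = 0.00452). In EV cells it went the opposite way, from 52.8 and 61.8 CPM in the inputs to 156 and 179 CPM in RIP EV. Zfp773 fell from 16.4 and 18.2 CPM to 8.48 and 4.11 CPM (log2 fold change -1.77, SE 0.414, edgeR adjusted p = 0.0207), was at 6.05 and 12.2 CPM in input EV, and was not called without RIP eIF4A2FL replicate 2 (edgeR adjusted p = 0.117). Across the leave-one-out fits, the 4 members called every time were Zfp217, Zfp704, Zfp652, and Zfp930, with edgeR adjusted p of at most 0.0498.

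**Figure D2:**
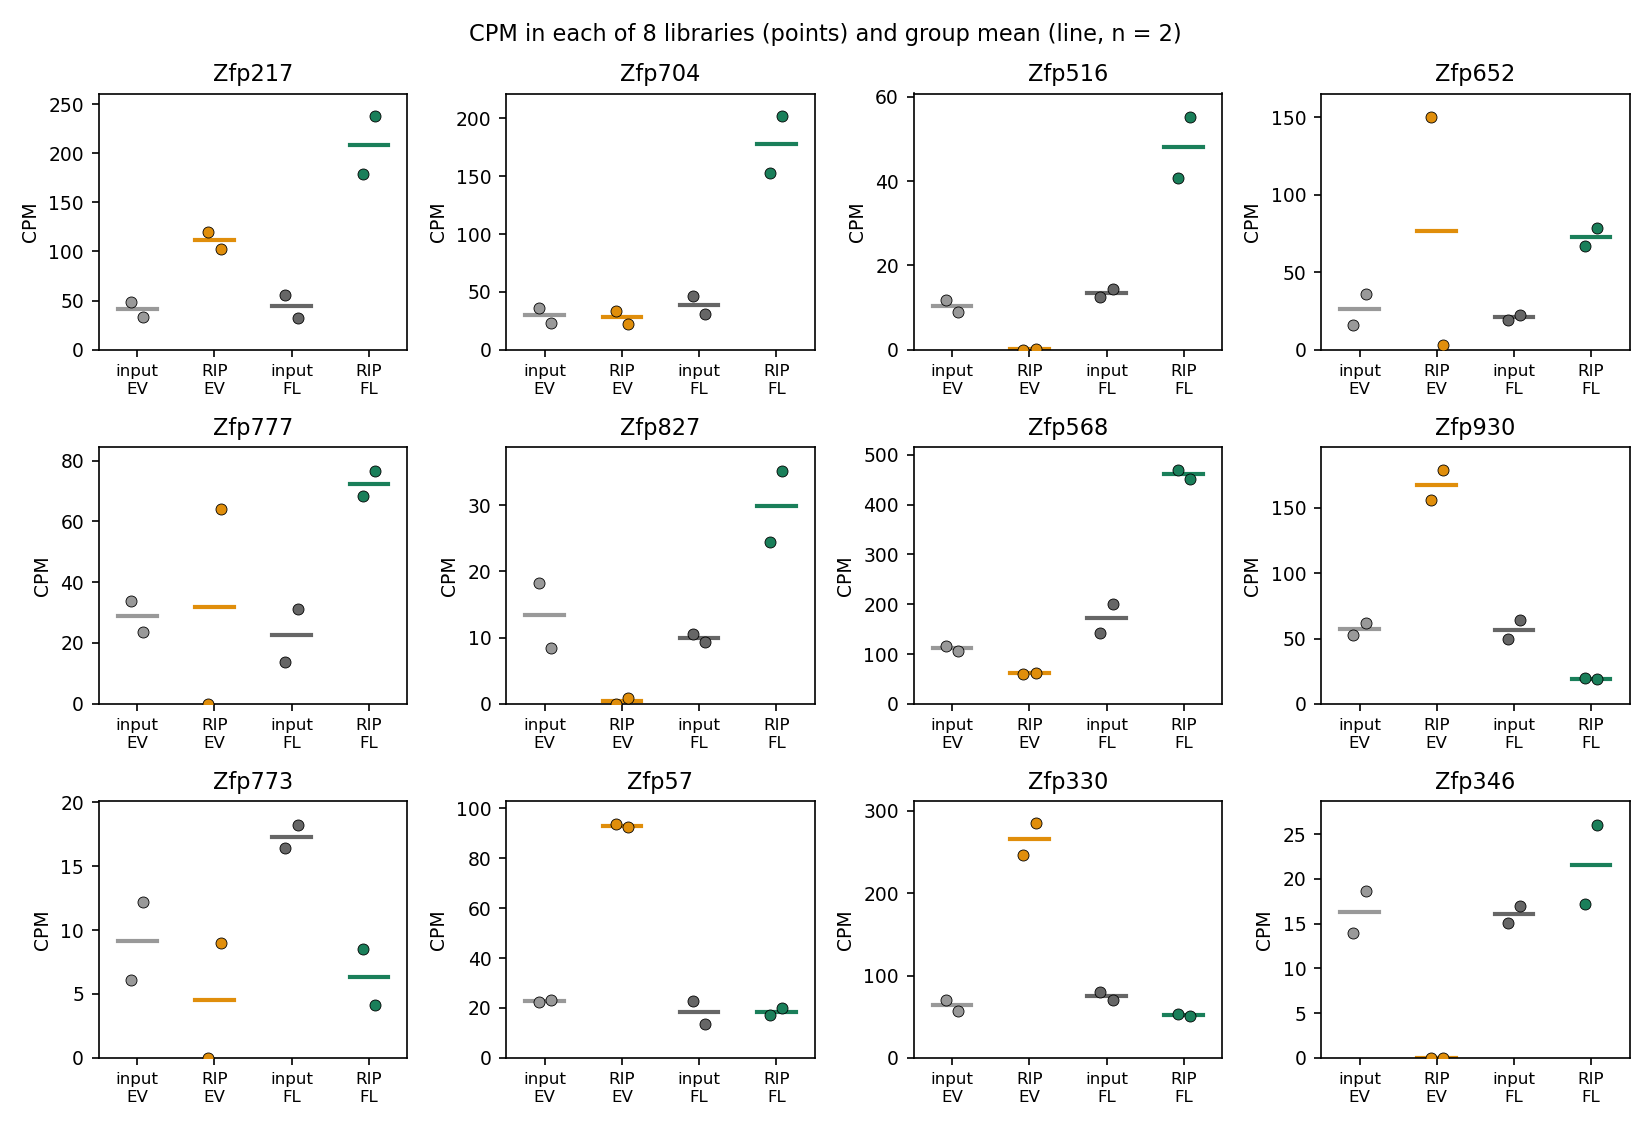
CPM of 12 members in each of the 8 libraries (points) with the mean of each group of 2 (lines), on linear axes that start at 0. Zfp217, Zfp704, Zfp516, Zfp652, Zfp777, Zfp827, and Zfp568 are higher in RIP eIF4A2FL than in both of its inputs, Zfp930 and Zfp773 are lower, and Zfp57, Zfp330, and Zfp930 are high in both RIP EV libraries.

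By domain, 3 of the 54 KRAB genes rose and 2 fell, with a median log2 fold change of 0.07. Of the 80 genes without the box, 9 rose and none fell (6 were below 0 at an unadjusted p under 0.05, and 3 fell by DESeq2 on the same 4 libraries), with a median of 0.30. Other C2H2 genes at the same input filter gave the following values. Among 27 genes named Zbtb, Zscan, or Zkscan plus a number, 4 rose (Zbtb22, Zbtb5, Zkscan3, and Zbtb40) and none fell, with none below 0 at an unadjusted p under 0.05, and the median was 0.41. Among 13 Klf genes, Klf13 and Klf15 rose, Klf11 fell, and the median was -0.15. Differences between these groups were not tested, and signs are relative to TMM scaling, since library size alone moves the values upward as given above.

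Of 8 genes linked to pluripotency, only Zfp217 passed the test, and the median log2 fold change was -0.08. By CPM, 5 of them had both RIP libraries above both inputs and 2, Zfp207 and Zfp296, had both below. These 2 were also below 0 at an unadjusted p under 0.05, and DESeq2 on the same libraries called Zfp207 lower. Zfp281, which helps cells leave the naive state, was at 50.9 and 42.7 CPM in the inputs and 102 and 64.4 CPM in RIP eIF4A2FL (log2 fold change 0.51, edgeR adjusted p = 0.258). Zfp706, also tied to that exit, had a log2 fold change of -0.23, and Zfp143, a promoter-binding factor, one of 0.08. Both were nonetheless among the 5 above their inputs by CPM. Zfp207, a spindle and splicing protein, went from 352 and 349 CPM to 292 and 226 CPM (-0.75, edgeR adjusted p = 0.0815), and Zfp296, a partner of KLF4, from 85.5 and 70.4 CPM to 67.5 and 58.3 CPM (-0.62, edgeR adjusted p = 0.137). Zfp462, which restrains differentiation through heterochromatin, had spread inputs of 42.4 and 16.9 CPM and RIP levels of 67.1 and 60.5 CPM (0.79, edgeR adjusted p = 0.203).

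Of 7 listed genes that act on imprints or retroelements, 5 met the input filter, and Zfp708 and Zfp932 did not. Only Zfp568 passed the test. Zfp445, which guards imprints together with Zfp57, was at 55.0 and 24.9 CPM in the inputs and 93.9 and 87.1 CPM in RIP eIF4A2FL (log2 fold change 0.86, edgeR adjusted p = 0.138). Zfp57 itself was at 22.7 and 13.7 CPM against 17.0 and 19.9 CPM (-0.28, edgeR adjusted p = 0.623), and Zfp809, which silences retroviruses, at 69.3 and 34.4 CPM against 49.4 and 52.8 CPM (-0.34, edgeR adjusted p = 0.543). For Zfp638, which acts on retroviral DNA, the log2 fold change was 0.35.

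None of the 8 members linked to RNA or ribosomes passed the test, with a median log2 fold change of 0.03, and 1 was above and 1 below 0 at an unadjusted p under 0.05. Zfp106 was at 474 and 196 CPM in the inputs and 649 and 1070 CPM in RIP eIF4A2FL (1.04, SE 0.441, edgeR adjusted p = 0.129), so its groups did not overlap but its replicates were far apart. Zfp598, the ubiquitin ligase that detects collided ribosomes, was at 84.6 and 84.5 CPM in the inputs and 146 and 149 CPM in RIP eIF4A2FL (0.49, edgeR adjusted p = 0.207). Zfp622, a factor in large ribosomal subunit maturation, had a log2 fold change of -0.19, Zfp346, which binds double-stranded RNA, one of 0.12, Zfp326, a splicing-linked protein, one of -0.06, and Zfp830, also splicing-linked, one of -0.20.

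Of the 32 genes listed as partners of KRAB proteins, all but Sumo2 were tested. In RIP eIF4A2FL against input, 8 rose (25.8%, against 8.44% of all genes) and 1 fell (3.23% against 8.46%), with a median log2 fold change of 0.64. The rises included Setdb1, the H3K9 methyltransferase (2.05, SE 0.353, edgeR adjusted p = 0.007), Dnmt1, the maintenance DNA methyltransferase (1.84, SE 0.289, edgeR adjusted p = 0.00513), Uhrf1, its guide to replicated DNA (1.29, SE 0.302, edgeR adjusted p = 0.0207), and Trim28, the KRAB co-repressor (1.02, SE 0.277, edgeR adjusted p = 0.0337). The fall was Mphosph8 of the HUSH silencing complex (-1.16, SE 0.292, edgeR adjusted p = 0.0266). The HP1 genes Cbx1, Cbx3, and Cbx5 had values of -0.44, -1.09, and -0.34, none past the test. In EV cells the partners' median for RIP over input was 0.43, against -0.65 over all genes tested, with none past the test. At an unadjusted p under 0.05 (edgeR), 5 were above and 2 below 0, as were 460 and 2715 of all 10754 genes. Both RIP EV libraries were below both inputs for 8 of the 31 (25.8%, against 44.9% of all genes). They were above both inputs for 11 (35.5%, against 14.6%). Trim28 was among these, at 833 and 729 CPM against 650 and 405 CPM. Of the 8 partners that rose over input, Chd3 was higher in RIP EV (163 and 134 CPM) than in RIP eIF4A2FL (64.4 and 102 CPM). For Daxx and Hdac2 the 2 RIP groups overlapped, and the others were lower in RIP EV. By the interaction test, the change was higher in eIF4A2FL cells for 2 partners and lower for 1 (6.45% and 3.23%, against 19.2% and 2.1% of all genes). The list was not matched for coding length. Of the protein-coding genes with 3000 or more coding bases, 419 of 1097 rose over input in eIF4A2FL cells, with a median of 0.88. The part of length in the partners' values was not tested.

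Coding length moved with these values. Across the 134 genes, Spearman's rho between the log2 fold change of RIP eIF4A2FL over input and coding length was 0.427. Over 7763 protein-coding genes with a known length it was 0.512. These are descriptions across genes of the same 4 libraries, and genes are not independent replicates. The 19 members with 3000 or more coding bases were all above 0, with a median of 0.79 against 0.88 for the 1097 protein-coding genes of that length. They included Zfp292 at 0.57, Zfp462 at 0.79, Zfp407 at 1.26, and Zfp318 at 1.38. In the 2000 to 2999 base class the medians were 0.51 and 0.37, in the 1500 to 1999 class 0.13 and 0.05, and in the 1000 to 1499 class, which holds Zfp930 and Zfp773, -0.20 and -0.17. They differed most under 1000 bases, at 0.21 for 16 members and -0.32 for 2567 genes. That class holds Zfp740, which rose by 0.87 (SE 0.261, edgeR adjusted p = 0.0481), Zfp41 (0.72), Zfp664 (1.54), and Zfp688 (1.07), the last 3 not past the test. The class of 16 is small, and its difference from the other genes was not tested.

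The 3′ UTR length gave rho of 0.165 in the 134 genes, 0.34 in the 80 without a KRAB box, -0.131 in the 54 with one, and -0.0219 over the protein-coding genes. Members without a KRAB box and with a 3′ UTR of 3000 or more bases (20 genes) had a median of 0.78, and 6 of them rose. The 9 KRAB members of that class had a median of 0.27, and none rose. For all 1008 protein-coding genes of that class the median was 0.00, and 96 rose. The number of finger matches gave rho of 0.16 and the mean level in input eIF4A2FL -0.115. The coding length of KRAB genes had a median of 1636.5 bases and no member of 3000 or more, against 1747.5 bases in the others, so the domain classes also differ in length. Its part in the difference between them was not tested.

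**Figure D3:**
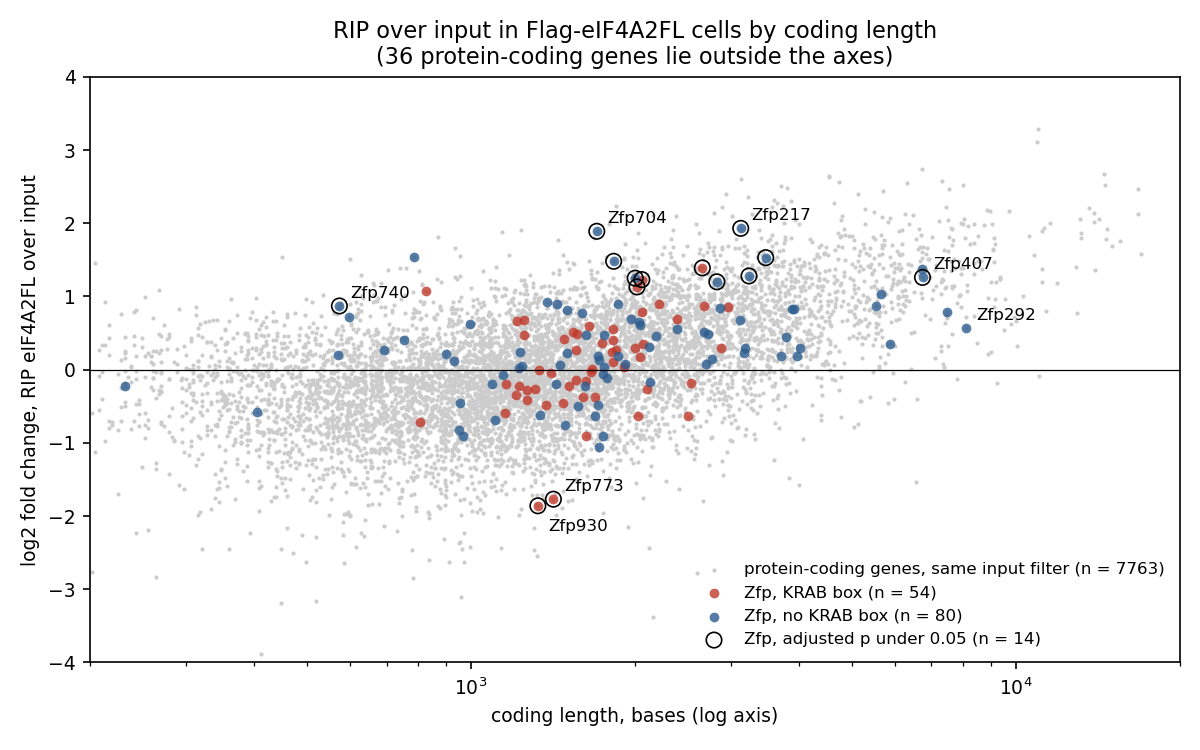
Log2 fold change of RIP eIF4A2FL over its input (y axis) against coding length in bases (x axis, log scale) for 54 KRAB genes (red), 80 other members (blue), and protein-coding genes at the same input filter (gray), with the 14 members past an adjusted p of 0.05 circled. With TMM scaling the members of 3000 or more bases all lie above 0, and both circled falls lie in the 1000 to 1499 base class.

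The background RIP was much less even. Between the 2 RIP EV libraries, only 25 of the 134 genes were within 2-fold of each other (18.7%, against 31.1% of the protein-coding genes). Between the RIP eIF4A2FL libraries 128 were, and between the inputs 121 (EV) and 116 (eIF4A2FL). The biological coefficient of variation estimated within each group was 159% for RIP EV and 23% to 30% for the other groups. In RIP EV, 63 members had no read in replicate 1 and 29 had none in replicate 2. For 22 both were at 0, which is 16.4% of the members against 7.91% of the protein-coding genes. Members with low input levels were most often at 0: 17 of the 22 were among the 44 members with a mean input level up to 14.3 CPM, 5 among the 45 at 15.0 to 35.0 CPM, and none among the 45 above that. No member was at 0 in a RIP eIF4A2FL library, where the lowest count was 41 reads. The share at 0 in RIP EV thus moved with the input level, and it was larger in the library with fewer reads. Input EV replicate 2 had 3204369 reads on genes and RIP EV replicate 2 had 3345151. All 134 members were read in the former, but the rule required reads in every input, so this comparison cannot decide the part of depth. The causes of the zeros were not tested.

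**Figure D4:**
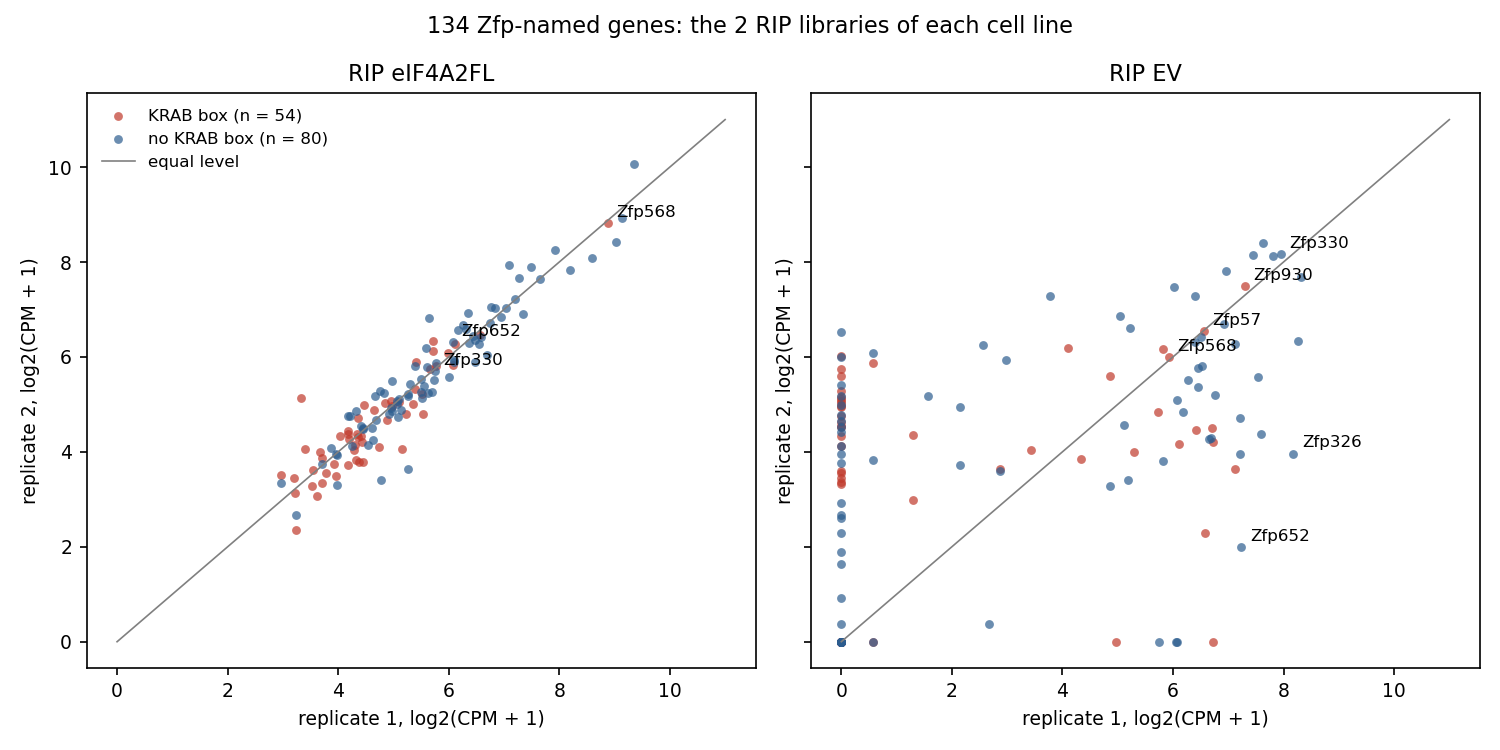
Level of each of the 134 genes in replicate 1 (x axis) and replicate 2 (y axis), as log2(CPM + 1), in RIP eIF4A2FL (left) and RIP EV (right), with KRAB genes in red, other genes in blue, and a line of equal level. The RIP eIF4A2FL points lie along the line, while most RIP EV points lie off it, many at 0 in 1 or both libraries, and Zfp330, Zfp930, Zfp57, and Zfp568 lie close to it.

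The second comparison set RIP eIF4A2FL against RIP EV, the antibody with and without the tagged protein. It shares the RIP eIF4A2FL libraries with the first comparison and the RIP EV libraries with the third. No member passed the test, nor did any other gene (0% of 10754, edgeR on the 4 libraries). At an unadjusted p under 0.05, 31 members were above and 3 below 0, as were 2578 and 571 of all 10754 genes and 1172 and 445 of the 7764 protein-coding genes at the same filter. DESeq2 on the same libraries called 22 members higher (16.4%, against 7.75% of all genes and 9.6% of the protein-coding genes) and 3 lower (2.24%, against 4.96% and 5.26%). The median log2 fold change was 0.66, against 0.67 over all genes and 0.49 over the protein-coding genes at the same filter. With edgeR on all 8 libraries, 32 members (23.9%) were higher and 5 lower, where 24.8% and 5.46% of all genes were, so the members' share was near that of all genes. Of the protein-coding genes at the same filter, 16.7% and 5.72% were. By CPM, both RIP eIF4A2FL libraries were above both RIP EV libraries for 69 members and below them for 10, against 49% and 13.8% of the protein-coding genes. With RIP EV replicate 1 left out, edgeR on the remaining 3 libraries called 69 members higher and 19 lower, and with replicate 2 left out 87 and 30. Of all 10754 genes, the same fits called 4705 higher and 2321 lower, and 6349 and 2000. In each case the lone RIP EV library is assumed to vary like the RIP eIF4A2FL pair.

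For the 22 members without reads in RIP EV, a fold change is only a lower bound. Against a floor of 3 reads over both RIP EV libraries (0.557 CPM), the pooled RIP eIF4A2FL level was at least 14.5-fold higher for Zfp952 and at least 65.6-fold higher for Zfp870, with a median bound of 34.8-fold. Zfp346 was at 17.2 and 26.0 CPM in RIP eIF4A2FL and at least 38.3-fold higher, while its inputs were at 13.9 and 18.7 CPM (EV) and 15.1 and 17.0 CPM (eIF4A2FL). It was thus at about the input level in RIP eIF4A2FL and undetected in RIP EV. Such bounds cover counting error only.

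Among members with at least 10 reads over the RIP EV libraries and groups that did not overlap, the largest fitted rises were those of Zfp664 (5.38 and 0.299 CPM in the EV precipitates against 49.2 and 112 CPM with eIF4A2FL, log2 fold change 4.65), Zfp462 (0 and 5.08 CPM, 67.1 and 60.5 CPM, 4.36), Zfp574 (0 and 6.58 CPM, 63.2 and 47.0 CPM, 3.78), and Zfp41 (3.42 and 12.3 CPM, 75.1 and 101 CPM, 3.23). Their edgeR adjusted p ran from 0.135 to 0.38. RIP EV held few reads of them: Zfp574, Zfp664, and Zfp462 also had the largest falls of RIP EV against its own input. Zfp568 had an edgeR adjusted p of 0.065 on the 4 libraries, at a log2 fold change of 2.68, and passed in the fit on 8 libraries (0.00662).

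The members that were lower in RIP eIF4A2FL than in RIP EV were named by the same rule. For them too, the fit on 8 libraries understates the spread of RIP EV. Zfp930 was at 156 and 179 CPM in the EV precipitates against 19.4 and 19.0 CPM with eIF4A2FL, a log2 fold change of -3.36 (edgeR adjusted p = 0.065 on 4 libraries and 0.00662 on 8). Zfp330, a nucleolar protein, was at 247 and 285 CPM against 52.9 and 51.2 CPM (-2.59, edgeR adjusted p = 0.065 and 0.00662). Zfp57, the imprint guardian, was at 93.9 and 92.4 CPM against 17.0 and 19.9 CPM (-2.56, edgeR adjusted p = 0.0774 and 0.0132). Zfp131, a BTB-domain transcription factor, was at 63.6 and 178 CPM against 27.5 and 36.9 CPM (-2.14, edgeR adjusted p = 0.18 and 0.0552). Both RIP EV libraries lay above the 6 other libraries for 9 members, and the share of all genes with this order is not given here. Against the RIP eIF4A2FL libraries alone, both RIP EV libraries were higher for 7.46% of the members and 13.8% of the protein-coding genes. In Zfp57, Zfp930, Zfp330, and Zfp110 the RIP EV libraries were within 1.28-fold of each other, and in Zfp131 they differed by 2.80-fold. Zfp110 was picked after its values were seen, at 55.3 and 70.8 CPM in RIP EV.

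The third comparison, RIP EV against input EV, described that background itself. Again no member and no gene passed (0% of 10754, edgeR on the 4 libraries). At an unadjusted p under 0.05, 4 members were above and 25 below 0. Of all 10754 genes 460 and 2715 were, and of the 7764 protein-coding genes at the same filter 381 and 1168. DESeq2 on these libraries called 1 member higher (Zfp330) and 3 lower (Zfp369, Zfp770, and Zfp870), or 0.746% and 2.24%. Of all genes it called 2.97% and 4.68%, and of the protein-coding genes 3.09% and 6.18%. The median was -0.49, against -0.65 over all genes and -0.44 over the protein-coding genes. With edgeR on 8 libraries, 5 members were higher (Zfp277, Zfp330, Zfp57, Zfp821, and Zfp930), or 3.73% against 4.5% of all genes, and 26 were lower, or 19.4% against 26.3%. Of the protein-coding genes at the same filter, 4.8% were higher and 17.0% lower, so the members' share that was lower lay between these backgrounds. Here too the fit on 8 libraries understates the spread of RIP EV, and limma voom called no gene. By CPM, 18 members were above both inputs and 60 below, against 17.3% and 39.5% of the protein-coding genes. Without RIP EV replicate 1, 19 were higher and 53 lower by edgeR, and without replicate 2, 28 and 79. The same fits called 1814 and 4421, and 1747 and 6483, of all 10754 genes, and they too rest on a lone RIP EV library.

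Among members with at least 10 reads over the RIP EV libraries and groups that did not overlap, the largest fitted rises in RIP EV were Zfp688, at 10.5 and 5.31 CPM in the inputs and 138 and 11.4 CPM in RIP EV (log2 fold change 3.18, edgeR adjusted p = 0.279), Zfp821, at 22.8 and 28.4 CPM and 138 and 76.5 CPM (2.04, edgeR adjusted p = 0.134), and Zfp330, at 69.9 and 57.4 CPM and 247 and 285 CPM (2.02, edgeR adjusted p = 0.0719). The replicates of Zfp688 were far apart and those of Zfp330 close. The largest falls by the same rule were Zfp574 (36.2 and 44.9 CPM in the inputs, 0 and 6.58 CPM in RIP EV), Zfp664 (33.4 and 31.2 CPM, 5.38 and 0.299 CPM), and Zfp462 (43.9 and 13.4 CPM, 0 and 5.08 CPM), with log2 fold changes of -3.61, -3.55, and -3.52. The relation with coding length seen in eIF4A2FL cells had the opposite sign among the members in EV cells: over the 106 with at least 10 reads in RIP EV, rho was -0.169 for RIP EV over input EV and 0.414 for RIP eIF4A2FL over its input, and over 6801 protein-coding genes 0.234 and 0.514.

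The last test asked whether the change from input to RIP differed between the cell lines (interaction term, edgeR on 8 libraries). It also shares 1 spread over all groups and understates that of RIP EV. The change was higher in eIF4A2FL cells for 27 members and lower for 2, that is 20.1% and 1.49%, where 19.2% and 2.1% of all genes were, so the share that was higher was near that of all genes. Of the protein-coding genes at the same input filter, 11.9% and 2.13% were. Of the 27, 22 had no read in RIP EV and 4 (Zfp142, Zfp516, Zfp606, and Zfp827) had 1 to 3 reads. Zfp568 was the only called one with more, at a difference of 2.00 on the log2 scale (edgeR adjusted p = 0.0196). The 2 lower ones were Zfp930 (-3.40, edgeR adjusted p = 0.0176) and Zfp330 (-2.87, edgeR adjusted p = 0.0176), and Zfp57 had -2.30 (edgeR adjusted p = 0.0798). No member was called when input EV replicate 1 or any of the 4 eIF4A2FL libraries was left out, nor by limma voom with a separate weight per group. In each of these fits no other gene was called either, so this is not particular to the members. With limma voom, 36 members were above and 2 below 0 at an unadjusted p under 0.05, and the share of all genes is not given here. Without RIP EV replicate 1, 56 were higher and 13 lower, and without RIP EV replicate 2, 82 and 19. Of all 10754 genes, these fits called 3858 and 1272, and 5806 and 1337, again with a lone RIP EV library.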

How the data were processed

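QuantSeq libraries, which read the 3′ end of each mRNA, were trimmed by the authors (bbduk), aligned to the mm10 genome by STAR (2.5.3a), and assigned to genes by HTSeq (0.11.2). The deposited values are raw read counts, with a column for each library. Neither the gene annotation used nor the strand option of the counting step is named in the paper or labels, so overlapping genes may share reads. The 5 summary lines stayed out of totals; reads with several alignments made up 27.0% to 52.1% of a library. In all, 52403 of 52550 gene identifiers matched GENCODE M21 (GRCm38), which gave names, positions, lengths, and proteins. KRAB boxes were found with a profile search (pyhmmer 0.12.3, E-value under 1e-04).

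Genes of at least 1 CPM in all 4 inputs (10754) were tested with edgeR 4.0.16 (TMM scaling, quasi-likelihood F-test, Benjamini-Hochberg adjustment over all of them) in R 4.3.3, on the 4 libraries compared, or on 8 for the interaction. SE is the log2 fold change over the root of F. Alternatives were DESeq2 1.42.0, other libraries, scalings, filters, and member limits (1 and 10 CPM), a replicate block, leaving out each library, and limma 3.58.1 voom, the last added after seeing the data. The steps were run on simulated counts for the pairwise comparisons, not for the interaction, and the outcome is not given here. One label field of RIP eIF4A2FL replicate 2 names Eif4a3; its title, column, and other fields name Eif4a2, and it was used as such.

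The members and lists were chosen with earlier results of these data known. Named are members of 3 lists of known roles, the 6 largest called rises and falls of RIP eIF4A2FL over input, the 4 and 3 largest each way in the comparisons with RIP EV, and members at the ends of the input range. Others named were chosen after their values were seen. Only 2 libraries per group limit the precision, and a 0 allows up to 0.268 to 1.47 CPM (3 reads) per library.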

Additional observations from a re-analysis of the deposited data

Results flagged for a closer look

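In all, 15 named members were flagged by either of 2 rules. Some passed the interaction test of edgeR on 8 libraries. In the others, the 2 RIP libraries lay above both inputs by CPM in one cell line and below both in the other. Zfp664, Zfp462, Zfp574, Zfp41, Zfp330, Zfp930, Zfp516, and Zfp827 were named at least in part for RIP values of these libraries. For them the flag is not separate support. The share of all genes with such an opposite order is not given here. Values are differences of log2 changes, eIF4A2FL cells minus EV cells. By the test, Zfp568 had 2.00, Zfp330 -2.87, and Zfp930 -3.40. Zfp346 (9.86), Zfp623 (9.20), Zfp516 (7.30), and Zfp827 (6.02) also passed, but had 0 to 3 reads in RIP EV, so the sizes depend on the prior count of the fit.

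By opposite order only, the values were 5.09 for Zfp664, 4.29 for Zfp462, 3.67 for Zfp574, 2.68 for Zfp143, 2.58 for Zfp41, 2.13 for Zfp598, 2.03 for Zfp281, and 1.58 for Zfp106. These did not pass the interaction test (edgeR adjusted p from 0.0979 for Zfp664 to 0.433 for Zfp143). For Zfp143 and Zfp574 the log2 fold change of RIP over input in eIF4A2FL cells was 0.08 each with TMM scaling.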

How the results depend on the processing

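All 14 members called in RIP eIF4A2FL against its input kept their direction in each of the 13 other settings. With DESeq2 on the 4 libraries 14 members rose and 5 fell (10.4% and 3.73%, against 9.27% and 10.2% of all genes). On 8 libraries DESeq2 called 5 rises and 2 falls (3.73% and 1.49%, against 2.55% and 4.0% of all genes). In edgeR on 8 libraries the counts were 0 and 0, against 0 and 6 of all genes. Library size alone gave 32 rises and a median of 0.57, against 1960 rises and a median of 0.33 over all genes. With a member limit of 1 CPM the median was 0.18, and with 10 CPM 1 member fell. Leaving out 1 library gave 4 to 20 rises, 1 to 5 falls, and medians of 0.21 to 0.40.

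For RIP eIF4A2FL against RIP EV, 32 members were higher and 5 lower with edgeR on 8 libraries (23.9% and 3.73%, against 24.8% and 5.46% of all genes). DESeq2 on 4 gave 22 and 3 (16.4% and 2.24%, against 7.75% and 4.96%). DESeq2 on 8 gave 41 and 10 (30.6% and 7.46%, against 30.4% and 10.5%). The median was 2.40 with limma voom, which called none of the members. Leaving out 1 library gave 0 to 87 higher, 0 to 30 lower, and medians of 0.70 to 5.68. For RIP EV against its input, 5 were higher and 26 lower with edgeR on 8 libraries (3.73% and 19.4%, against 4.5% and 26.3% of all genes). DESeq2 on 4 gave 1 and 3 (0.746% and 2.24%, against 2.97% and 4.68%). DESeq2 on 8 gave 13 and 38 (9.7% and 28.4%, against 10.0% and 32.0%). The median was -2.14 with limma voom, which called none of the members. Leaving out 1 library gave 0 to 28 higher, 0 to 79 lower, and medians of -4.96 to -0.47. For the difference between cell lines, DESeq2 called 7 lower, limma voom 0 and 0, and leaving out 1 library gave 0 to 82 higher and 0 to 19 lower. The cause of these differences was not tested, except that a fit on fewer libraries estimates the spread from the libraries left.

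The replicate numbers were not shown to pair the libraries: deviations of same-numbered libraries correlated at -0.0272 to 0.127 over genes. With the replicate number as a block, 10 members rose and 2 fell in RIP eIF4A2FL against its input (median 0.25), as did 749 and 699 of all genes. Against RIP EV 3 were higher and 1 lower (median 2.67), and in RIP EV against its input 1 was higher and 1 lower (median -2.32). In these 2 comparisons with RIP EV, 210 and 171, and 154 and 272, of all 10754 genes were called, where none was without the block. The difference between cell lines gave 25 and 2, against 1604 and 134 of all 10754 genes.

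A count of 0 in RIP EV allows up to 1.47 CPM in replicate 1 and 0.897 CPM in replicate 2, and levels under these could not be detected there.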
